A study of Mus musculus with 10 samples.

Results

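Mt1, Mt2, Mtf1 and Slc30a1 are 4 genes of the cellular zinc response, and their RNA was followed in tumor-infiltrating CD8+ T cells. They were chosen by name: both metallothionein genes expressed outside the nervous system and skin, the transcription factor gene that regulates them, and a zinc exporter gene. The estimated counts of each gene's transcripts were summed in each of 10 libraries. The 4 genes are 4 of 27403 with a count in any library and 4 of the 11781 that passed the expression filter and were tested, so no member was lost to the filter.

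Both groups were Pmel CD8+ T cells, which carry a transgenic T cell receptor for the melanoma antigen gp100, from Thy1.2 mice. Splenocytes were activated with gp100 peptide and IL-2 and given the MIT retroviral vector, which marks transduced cells with Thy1.1 and carried the mouse BATF reading frame in the MIT-BATF group and no insert in the MIT-Empty group. They were then cultured with IL-2, IL-7 and IL-15, and Thy1.1+ cells were given to each Ly5.1 mouse bearing a B16-F10 melanoma. On day 7 after transfer, 2000 live Thy1.1+ cells were sorted from the tumors of each mouse, 5 mice per group, and RNA libraries made by a modified SMART-Seq2 protocol were sequenced as paired reads of 37 bp. The mice of the study were 8 to 12 weeks old and of both sexes, and neither the age nor the sex of single mice was given. The comparison asks how forced expression of BATF, an AP-1 family transcription factor, changes RNA in these cells. The vector drives BATF from a viral promoter in cells activated in culture, so the model is one of added BATF and not of the T cell's own gene. The sorted cells are a bulk sample, in which fewer cells of a type and less RNA per cell cannot be told apart.

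Metallothioneins are small proteins rich in cysteine that bind zinc and copper and take up metal that is free in the cell. When zinc rises, it binds the zinc fingers of MTF-1, the product of Mtf1, which then enters the nucleus and binds short metal response elements in the promoters of Mt1, Mt2 and Slc30a1. Slc30a1 encodes ZnT1, which moves zinc out across the plasma membrane. Mt1 and Mt2 also respond to glucocorticoids and to oxidative stress, and in mice they have been described in dysfunctional CD8+ T cells of tumors.

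The depth per library was 10702740 to 34102086 counts in MIT-BATF and 6534472 to 21355657 in MIT-Empty, and between 11.5% and 33.2% of counts in MIT-BATF and between 15.5% and 23.1% in MIT-Empty were from mitochondrially encoded genes. Not all libraries were separate. Among 45 pairs, 4 were nested: the counts of MIT-BATF replicates 4 and 5 lay gene by gene within those of its replicates 2 and 3, as did those of the same numbers in MIT-Empty. The contained library exceeded the other in at most 0.661% of genes in these pairs, against at least 3.54% in the others. The results of the 4 genes are therefore given for the deposited counts and for counts from which each contained library was taken off the library that holds it, called shared reads counted once. If nested libraries hold the same reads, the p-values, SDs and intervals over deposited counts are narrower than they should be. Fits with shared reads counted once also take the 5 libraries of a group as separate. Whether what was left of a containing library is a separate mouse is not known. Batf itself had a mean of 21.9 ± 5.54 CPM (counts scaled to a common library total) in MIT-BATF libraries, against 29.2 ± 14.8 CPM for MIT-Empty (SD, n = 5 each), with overlapping groups and an adjusted p of 0.522 by edgeR's quasi-likelihood test. The sources used here do not say whether reads from the vector were counted under Batf, so this level does not check the labels, by which the groups are named below. All 7 CD8 T cell markers were present in every library, with a summed level of 3001 to 4972 CPM in MIT-BATF and 3371 to 5554 CPM in MIT-Empty, with the T cell receptor gene Trac the highest by mean TPM, which allows for transcript length.

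The start regions of both metallothionein genes and of Slc30a1 are shown because they hold copies of the metal response element through which zinc reaches these genes. Each runs from 250 bases before to 50 bases after the gene start in RefSeq (GRCm38.p6) and is printed on the plus strand, on which all 3 genes lie. Capitals mark the core of the metal response element, searched on both strands as TGCACNC or TGCGCNC.
Mt1, chr8:94178839-94179138: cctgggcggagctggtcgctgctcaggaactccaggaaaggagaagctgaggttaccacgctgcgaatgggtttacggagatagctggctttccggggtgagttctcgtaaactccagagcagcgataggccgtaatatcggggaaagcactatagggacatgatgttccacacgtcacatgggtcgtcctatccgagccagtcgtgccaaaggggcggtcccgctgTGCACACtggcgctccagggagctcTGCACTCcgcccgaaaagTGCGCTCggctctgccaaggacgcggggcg
Mt2, chr8:94172368-94172667: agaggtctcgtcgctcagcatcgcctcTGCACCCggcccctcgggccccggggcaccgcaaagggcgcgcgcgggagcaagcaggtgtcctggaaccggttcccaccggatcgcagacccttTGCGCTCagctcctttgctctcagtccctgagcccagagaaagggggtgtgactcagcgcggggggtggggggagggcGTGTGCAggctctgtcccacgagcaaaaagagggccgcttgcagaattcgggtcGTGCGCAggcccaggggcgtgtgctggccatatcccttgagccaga
Slc30a1, chr1:191906531-191906830: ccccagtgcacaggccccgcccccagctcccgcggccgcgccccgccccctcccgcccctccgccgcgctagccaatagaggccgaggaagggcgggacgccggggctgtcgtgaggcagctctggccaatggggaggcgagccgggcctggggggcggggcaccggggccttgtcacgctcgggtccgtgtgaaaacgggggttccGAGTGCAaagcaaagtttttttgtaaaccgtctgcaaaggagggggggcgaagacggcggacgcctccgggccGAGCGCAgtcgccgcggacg

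Mt1 held 3 matches, which began at -23, 2 and 20 relative to the gene start and all read in the printed strand. Mt2 held 4, at -223, -128, -50 and 4, of which those at -50 and 4 read on the other strand. Slc30a1 held 2, at -43 and 30, both on the other strand. The same window around the RefSeq start of Mtf1 (124802299 to 124802598 of chromosome 4) held none of these letters. It does not reach the start annotated for the transcript Mtf1-202, at 124802104, which was not searched. Of 32851 RefSeq start regions of this length, 25.7% held at least 1 match, 7.11% at least 2, 1.97% at least 3 and 0.517% at least 4. The antioxidant response element, searched as TGACNNNGC on both strands, occurred in Mt2 at -79 and in Slc30a1 at -82 and overlapped no metal response element, and 12.4% of all regions held it. These matches describe the letters of the windows, and binding was not measured. Letters past the windows were not searched, and for Mt1 the annotated starts of the transcripts Mt1-203 and Mt1-202 (94179211 and 94179241) lie there.

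Mt1 and Mt2 were abundant RNAs of the sorted cells in both groups, while Mtf1 and Slc30a1 were low. The means of both metallothioneins were lower in MIT-BATF by less than the spread among MIT-Empty mice, in which the highest library had 5.0 times the Mt1 of the lowest. Both genes were high and low in the same libraries. None of the 4 genes passed the test between MIT-BATF and MIT-Empty (adjusted p under 0.05 by edgeR), which 4.58% of the 11781 genes tested did. The groups differed in which Mtf1 transcript the full-length counts were assigned to.

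Mt1 (ENSMUSG00000031765, chromosome 8 of GRCm38, plus strand, 94179082 to 94180327) encodes metallothionein 1. Its level was 850.8, 493.9, 442.1, 782.9 and 845.5 CPM in replicates 1 to 5 of MIT-BATF, against 906.2, 1184, 396.2, 1979 and 480.1 CPM in those of MIT-Empty. Every MIT-BATF library lay within the range of the MIT-Empty libraries, whose replicates 4 and 2 were the highest of all 10 and whose replicate 3 was the lowest. The means were 683 ± 199 CPM and 989 ± 639.4 CPM (SD, n = 5 each). The log2 fold change of MIT-BATF over MIT-Empty was -0.53 (standard error 0.365, 95% interval -1.31 to 0.246, adjusted p = 0.492 by edgeR's quasi-likelihood test). CPM here use library totals after TMM normalization, and p-values were adjusted by Benjamini-Hochberg over all genes tested.

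Counting shared reads once widened the spread of Mt1. The level was then 912.8, 314.2, 147.5, 841.4 and 908.7 CPM in MIT-BATF, against 974.7, 897.2, 335.7, 2139 and 516.6 CPM in MIT-Empty. MIT-BATF replicates 2 and 3, from which a contained library had been taken off, were now the lowest of the 10. The log2 fold change was -0.64 (standard error 0.515, 95% interval -1.74 to 0.459, adjusted p = 0.767 by edgeR).

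Mt2 (ENSMUSG00000031762, chromosome 8, plus strand, 94172664 to 94173568), the second metallothionein gene, lies beside Mt1. It was at 340.8, 178.7, 152.7, 274.2 and 299.4 CPM in MIT-BATF, against 343.6, 377.5, 133.9, 600.7 and 151.9 CPM in MIT-Empty. Again the MIT-BATF libraries lay within the range of the MIT-Empty libraries, and MIT-Empty replicates 4 and 2 were highest. Means were 249.2 ± 80.32 CPM and 321.5 ± 190.7 CPM (SD, n = 5 each), and the log2 fold change was -0.37 (standard error 0.356, 95% interval -1.13 to 0.392, adjusted p = 0.652 by edgeR). With shared reads counted once the log2 fold change was -0.49 (standard error 0.504, 95% interval -1.56 to 0.588, adjusted p = 0.843 by edgeR). The intervals of both genes take in falls as well as rises, so no difference of either kind was detected at this spread.

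Together the genes made up between 0.0753% and 0.101% of all counts in MIT-BATF and between 0.0606% and 0.244% in MIT-Empty. Their sum was 1192, 672.6, 594.8, 1057 and 1145 CPM in MIT-BATF, against 1250, 1561, 530.1, 2580 and 632 CPM in MIT-Empty, with a log2 fold change of -0.49 (adjusted p = 0.528 by edgeR), or -0.60 (adjusted p = 0.794) with shared reads counted once. The highest library exceeded the lowest 2.0-fold in MIT-BATF and 4.87-fold in MIT-Empty.

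**Figure D1:**
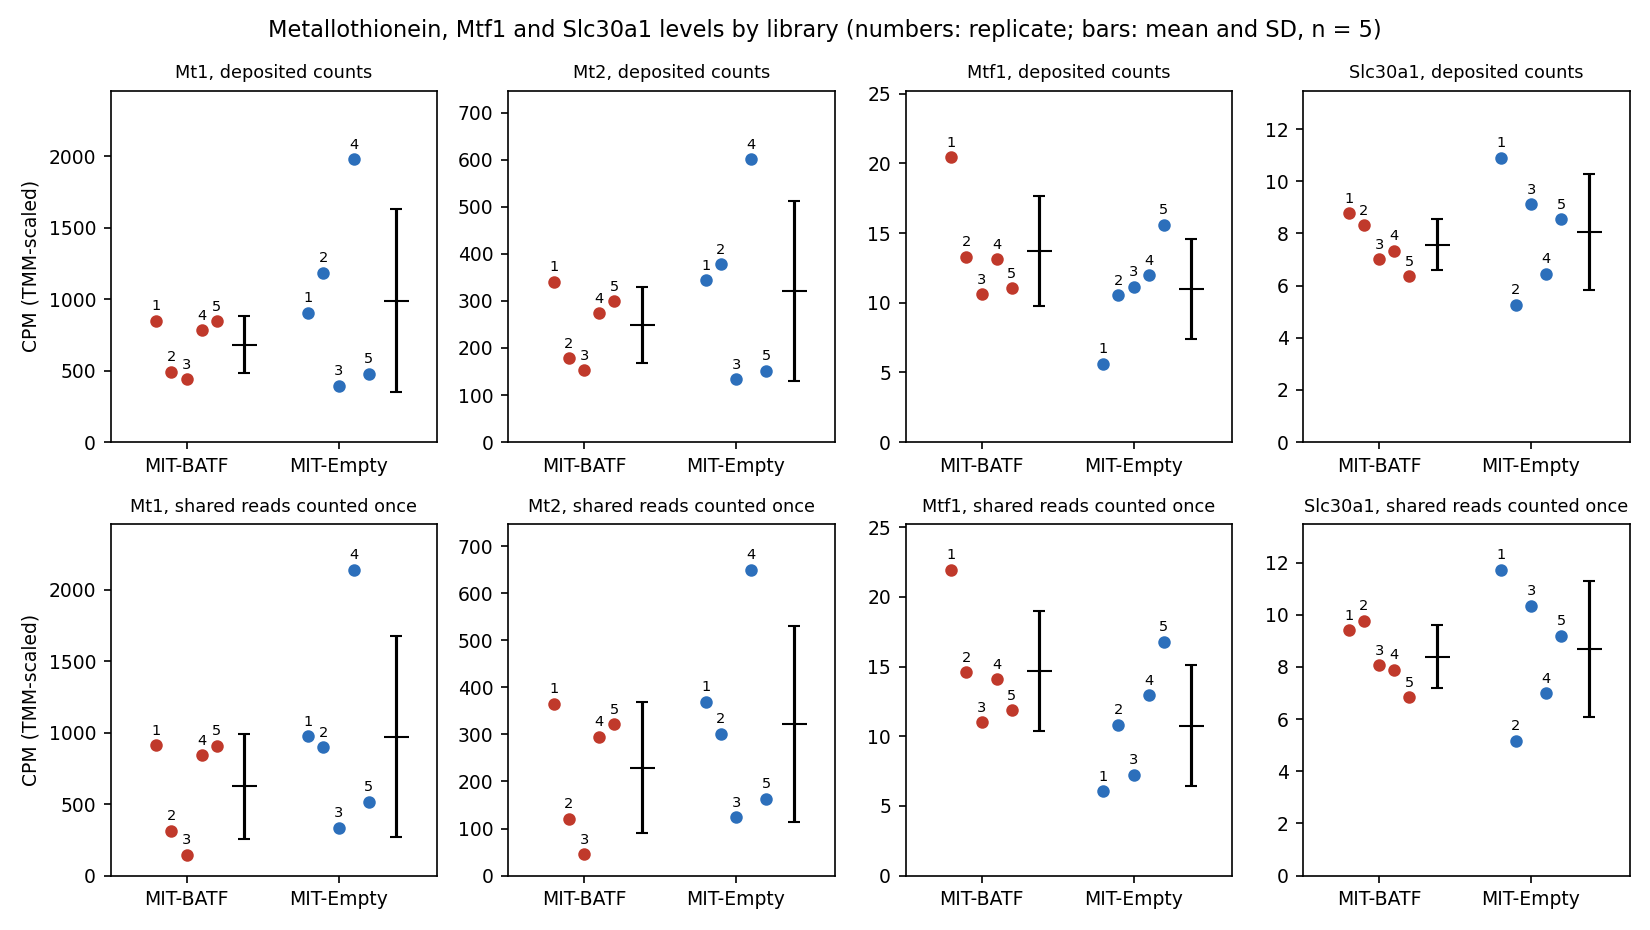
TMM-scaled CPM of Mt1, Mt2, Mtf1 and Slc30a1 in the 5 MIT-BATF (red, left) and 5 MIT-Empty (blue, right) libraries, numbered by replicate, with the mean and SD in black, for deposited counts (top) and shared reads counted once (bottom). The groups overlap in every panel, and MIT-Empty replicate 4 stands at the top for Mt1 (1979 CPM) and Mt2 (600.7 CPM).

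On the authors' TPM scale, which also divides by transcript length, the order of the genes was Mt1, Mt2, Mtf1 and Slc30a1 in each of the 10 libraries. Mt1 was at 1208 to 1559 TPM in MIT-BATF and 886 to 4343 TPM in MIT-Empty, Mt2 at 423.9 to 631.4 TPM and 288.9 to 1329 TPM. Mtf1 was far lower (6.833 to 12.41 TPM in MIT-BATF, 3.177 to 11.52 TPM in MIT-Empty). Mt1 ranked 115th to 161st among all genes by TPM in MIT-BATF and 43rd to 195th in MIT-Empty, where replicate 4 gave the 43rd place. Mt1 and Mt2 RNAs are short, 549 and 511 bases, close to the length of sequenced fragments. The effective length that divides the counts of Mt1 was 218 to 277.6 bases in MIT-BATF and 220 to 253 bases in MIT-Empty. On the TPM scale, which has no TMM scaling, the summed level differed 1.34-fold among MIT-BATF libraries and 4.83-fold among MIT-Empty libraries. As a plain share of all counts it was 0.0753% to 0.101% in MIT-BATF and 0.0606% to 0.244% in MIT-Empty.

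The spread of both metallothioneins was wide among expressed genes. For the 6372 genes whose mean log2 CPM was 3 or more, the SD of log2 CPM over MIT-Empty libraries had a median of 0.25, while it was 0.95 for Mt1 and 0.921 for Mt2. Only 0.628% of these genes spread more than Mt1 in MIT-Empty, and 0.738% more than Mt2. In MIT-BATF the SDs were 0.456 and 0.5 against a median of 0.307, with 18.6% and 13.4% of genes spreading more. The difference in spread between the groups was not tested, and with shared reads counted once the highest library exceeded the lowest 6.64-fold in MIT-BATF and 6.06-fold in MIT-Empty for the sum of the genes. In each of the 4 nested pairs the contained library had a higher summed level than what was left of the library holding it: 1136 against 434.9 CPM for MIT-BATF replicates 4 and 2, 1231 against 192.6 CPM for MIT-BATF replicates 5 and 3, 2789 against 1199 CPM for MIT-Empty replicates 4 and 2, and 680 against 460 CPM for MIT-Empty replicates 5 and 3.

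Markers of other cells were high in the same MIT-Empty libraries as the metallothioneins. The summed level of 8 melanoma markers, of which the melanocyte antigen gene Mlana was highest by mean TPM, was 14.4 to 29.5 CPM in MIT-BATF, against 115.7, 577.4, 52.65, 1738 and 39.74 CPM in MIT-Empty replicates 1 to 5. MIT-Empty replicates 4, 2 and 1 were thus highest in melanoma markers and, in the same order, highest in Mt1 plus Mt2. Of the 8 markers, 6 were tested and all 6 fell in MIT-BATF (adjusted p under 0.05 by edgeR), but 2 of 5 tested, Mlana and the pigment enzyme gene Tyrp1, with shared reads counted once. Of these markers, Sox10, Mitf or Slc45a2 was at 0 counts in 4 of the 10 libraries. Over all genes tested, 2.43% were lower in MIT-BATF, and 76 of 11129 with shared reads counted once. The 12 macrophage and monocyte markers, with the lysozyme gene Lyz2 highest by mean TPM, summed to 25.5 to 81.9 CPM in MIT-BATF and 43.06 to 290.1 CPM in MIT-Empty, again with replicate 4 highest, and 4 of 10 tested fell in MIT-BATF, but 1 of 10, the apolipoprotein gene Apoe, with shared reads counted once. The 8 fibroblast and endothelial markers summed to 6.95 to 14.1 CPM in MIT-BATF and 16.3 to 107.5 CPM in MIT-Empty, with replicate 4 highest once more. The endothelial adhesion gene Pecam1 was highest of them by mean TPM. It went the other way, with 7.595 CPM in replicate 4 against 12.04 to 14.35 CPM in the other MIT-Empty libraries. The CD8 T cell markers did not follow the order of the metallothioneins, as MIT-Empty replicate 5 was highest in them and second lowest in metallothioneins.

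When shared reads were counted once, the melanoma sum of MIT-Empty replicate 2 was 50.87 CPM while its Mt1 plus Mt2 was still 1199 CPM, the third highest of the 5 MIT-Empty libraries. Melanoma sums were then 124.5, 50.87, 69.63, 1879 and 42.76 CPM and metallothionein sums 1344, 1199, 460, 2789 and 680 CPM in MIT-Empty replicates 1 to 5. Within MIT-BATF, whose melanoma sums then lay at or under 31.7 CPM, the metallothionein sum differed 6.64-fold, and over deposited counts 2.0-fold at melanoma sums of up to 29.5 CPM. Over deposited counts without MIT-Empty replicates 2 and 4 the log2 fold change turned positive, 0.21 for Mt1 (adjusted p = 0.832) and 0.25 for Mt2 (adjusted p = 0.801, both by edgeR). Without MIT-Empty replicate 4 alone it was -0.12 for Mt1 and -0.012 for Mt2. The part of melanoma and other non-T-cell RNA in the metallothionein levels was not tested.

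**Figure D2:**
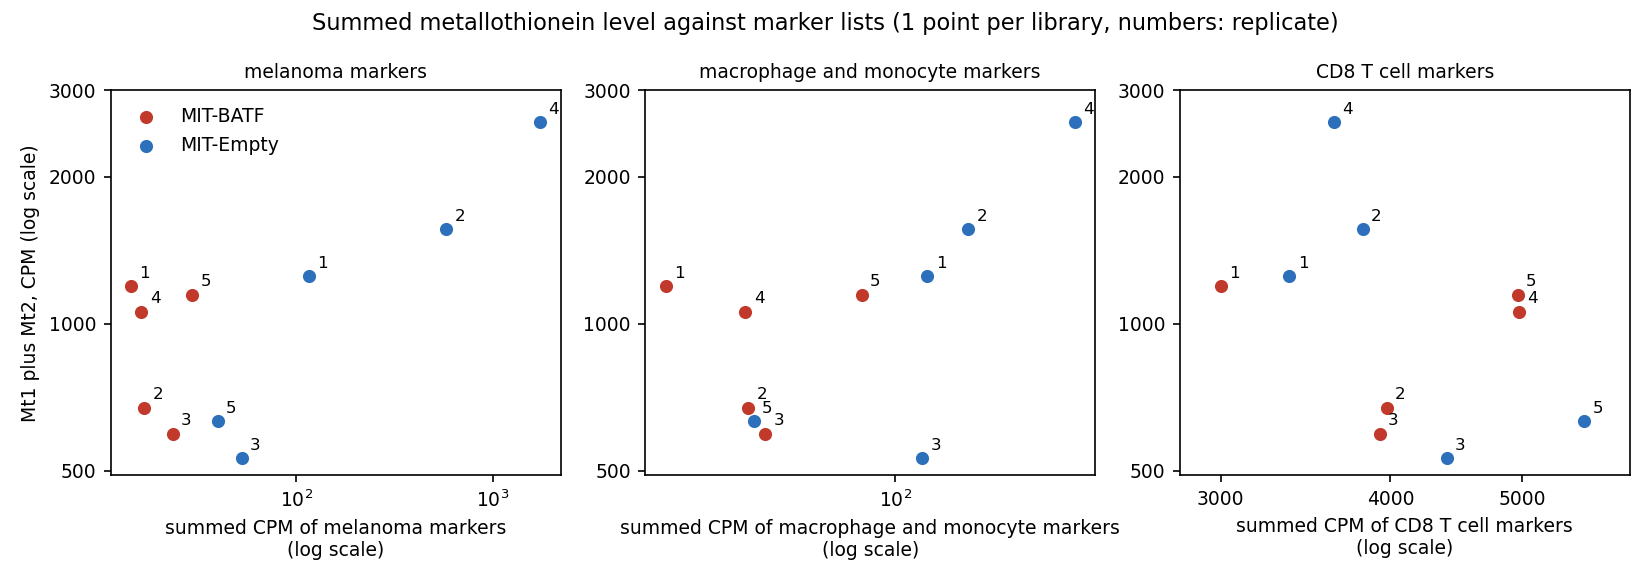
Summed CPM of Mt1 and Mt2 against the summed CPM of melanoma (left), macrophage and monocyte (middle) and CD8 T cell (right) markers on log axes, 1 point per library, red for MIT-BATF and blue for MIT-Empty, with replicate numbers. MIT-Empty replicates 4 and 2 are highest in metallothioneins (2580 and 1561 CPM) and in melanoma markers (1738 and 577.4 CPM), while the MIT-BATF libraries range from 594.8 to 1192 CPM of metallothioneins at 14.4 to 29.5 CPM of melanoma markers.

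Other marker lists were mixed. Within MIT-Empty the sum of the CD4 T cell markers was highest in replicates 2 and 4 (3.5 and 3.232 CPM). The erythroid sum was highest in replicate 4 (72.88 CPM). The neutrophil sum was lowest in replicate 4 (1.778 CPM), the B cell sum lowest in replicate 2 (0.6087 CPM) and the NK cell sum highest in replicate 1 (16.53 CPM). Of the 7 dendritic cell markers, the invariant chain gene Cd74 was highest by mean TPM. The 7 summed to 56.7 to 87.3 CPM in MIT-BATF and 116 to 362.2 CPM in MIT-Empty, where replicate 4 was lowest. In both fits 2 of 4 tested were lower in MIT-BATF, beside 2.43% of all genes over deposited counts and 76 of 11129 with shared reads counted once. Clec9a or Cd209a was at 0 in every library. The neutrophil (5 markers), B cell (4), NK cell (3) and CD4 T cell (3) lists summed to at most 7.24, 4.64, 20.1 and 6.47 CPM in any library. Of these only the B cell receptor gene Cd79b passed the test (log2 fold change 1.79, adjusted p = 0.0175 by edgeR), and it missed the threshold with shared reads counted once (1.69, adjusted p = 0.128). The erythroid list, with the globin gene Hba-a2 highest by mean TPM, summed to 0 to 488.6 CPM in MIT-BATF and 0 to 72.9 CPM in MIT-Empty, highest in MIT-BATF replicate 2, a library low in metallothioneins.

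The proteins of Mt1 and Mt2 differ little, but their RNAs could be counted apart. The main transcripts, Mt1-201 and Mt2-201, each have 3 exons and a coding sequence of 183 bases, of which 145 (79.2%) are the same. They share no stretch of 37 bases, the length of a read, with each other, and neither gene shares one with any other annotated gene. Mt1-201 took 99.41% and Mt2-201 99.21% of the counts of their genes over all libraries.

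The ratio of Mt1 to Mt2 was narrower than either level. The log2 ratio of counts was 1.32, 1.466, 1.533, 1.513 and 1.498 in MIT-BATF, against 1.399, 1.649, 1.565, 1.72 and 1.66 in MIT-Empty. The groups overlapped through MIT-Empty replicate 1, and the other 4 MIT-Empty libraries lay above every MIT-BATF library. The mean was 1.466 ± 0.0852 for MIT-BATF, against 1.599 ± 0.124 for MIT-Empty (SD, n = 5 each), a difference of -0.13 with a two-sided p of 0.0794 by exact permutation of the group labels, whose smallest possible p is 0.00794. Without MIT-Empty replicate 1, the only library that overlapped, the difference was -0.18. The exact permutation p was then bound to be the smallest that 126 assignments allow, 0.00794, and adds no support. Leaving out any other single library gave exact permutation p-values of 0.0794 to 0.175. Without the contained libraries the p was 0.4 and without the containing libraries 0.3, both by exact permutation. With shared reads counted once it was -0.073 with an exact permutation p of 0.429.

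**Figure D3:**
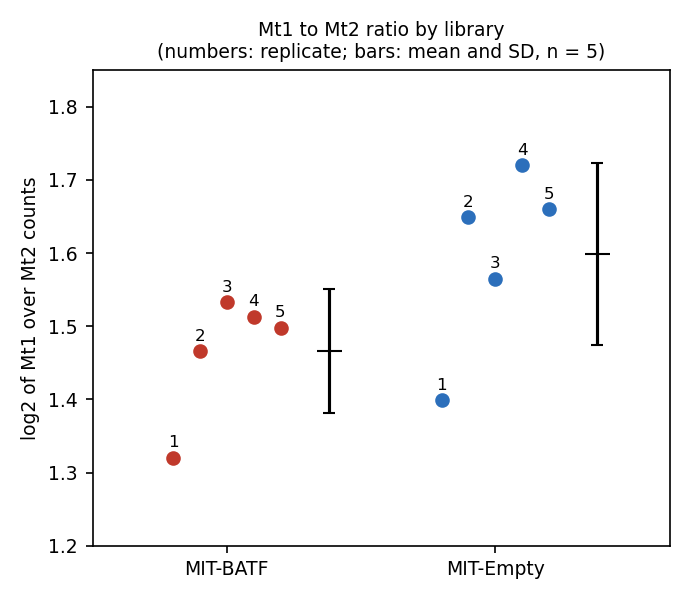
Log2 of the ratio of Mt1 to Mt2 counts in the 5 MIT-BATF (red, left) and 5 MIT-Empty (blue, right) libraries, numbered by replicate, with mean and SD in black and a vertical axis that starts at 1.2. MIT-Empty replicate 1 (1.399) lies among the MIT-BATF libraries and the other 4 above them.

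Across the 10 libraries, Mt1 and Mt2 were each other's closest match among 6081 genes whose mean log2 CPM was 3 or more, with predicted genes and pseudogenes left out, with a Pearson's r of log2 CPM of 0.986. It was 0.99 after taking off the group means and 0.992 with shared reads counted once. These are descriptions over 10 libraries, of which 4 have counts that lie within those of others, and the points share library depth and fragment length. The next genes by likeness to Mt1 were Ube2w, a ubiquitin-conjugating enzyme gene (0.96), the antiviral membrane protein gene Ifitm3 (0.956), the zinc finger gene Zfp991 (0.947) and Cnih4, which encodes a cargo receptor of secretion (0.945). For Mt2 they were Iqcb1, a gene of the primary cilium (0.961), the PDZ protein gene Tax1bp3 (0.952), Ube2w (0.951) and Ifitm3 (0.947). Ifitm3 was at 148.3, 121.3, 117.5, 172.7 and 192.8 CPM in MIT-BATF, against 177.2, 193.2, 90.88, 343.3 and 89.44 CPM in MIT-Empty, and so was highest in MIT-Empty replicate 4 and lowest in its replicates 3 and 5, as the metallothioneins were. Mtf1 was not among these genes: its r was -0.129 with Mt1 and -0.131 with Mt2.

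Mtf1 (ENSMUSG00000028890, chromosome 4, plus strand, 124802104 to 124849800) encodes the zinc-sensing transcription factor MTF-1. It was at 20.45, 13.3, 10.62, 13.11 and 11.05 CPM in MIT-BATF, against 5.632, 10.55, 11.14, 11.96 and 15.6 CPM in MIT-Empty. The lowest value was that of MIT-Empty replicate 1 and the highest that of MIT-BATF replicate 1, and the others overlapped. The means were 13.71 ± 3.957 CPM and 10.97 ± 3.574 CPM (SD, n = 5 each). The log2 fold change was 0.31 (standard error 0.254, 95% interval -0.231 to 0.853, adjusted p = 0.576 by edgeR) and, with shared reads counted once, 0.44 (adjusted p = 0.688). MIT-BATF replicate 1 is also the library with 33.2% of its counts in mitochondrially encoded genes, and the part of this in its Mtf1 level was not tested.

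Most of the Mtf1 counts were not on a full coding transcript. Mtf1-204, annotated as a retained intron form of 781 bases with no coding sequence, took 73.28% of the gene's counts over all libraries, 68.0% to 77.7% in MIT-BATF and 48.8% to 82.5% in MIT-Empty. The full-length forms Mtf1-201 and Mtf1-202, of 7631 and 7554 bases, together gave 50.2, 61.4, 93.7, 39.1 and 40.4 counts in MIT-BATF, against 19.3, 51.6, 57.5, 13.0 and 31.7 counts in MIT-Empty. On the TPM scale these full-length forms were at 0.139 to 0.275 in MIT-BATF and 0.145 to 0.188 in MIT-Empty, under Slc30a1 in every library. The order of Mtf1 above Slc30a1 therefore rests on shorter forms, of which the retained intron form took most counts. Mtf1-203, a short form annotated as coding, took 5.35% of counts. Its TPM of 0.823, 1.332 and 1.042 lay above Slc30a1 (0.757, 1.034 and 0.612) in MIT-BATF replicates 1, 3 and 5. In every other library Mtf1-203 lay under Slc30a1. With protein-coding transcripts alone the log2 fold change of Mtf1 was 0.40 (adjusted p = 0.555 by edgeR).

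The full-length counts fell on a different transcript in each group. All of them were on Mtf1-202 in the MIT-BATF libraries and all on Mtf1-201 in the MIT-Empty libraries. Mtf1-202 thus had 39.1 to 93.7 counts in MIT-BATF and 0 in all 5 MIT-Empty libraries. Mtf1-201 had 0 in all 5 MIT-BATF libraries and 13.0 to 57.5 counts in MIT-Empty. Each 0 is an estimate and sets no upper limit on the transcript, since most reads fit both forms. The transcripts have the same coding sequence of 2025 bases and share 7174 stretches of 37 bases, with 421 found only in Mtf1-201 and 344 only in Mtf1-202. They differ at their ends: Mtf1-202 starts at 124802104 and has 12 exons, Mtf1-201 starts at 124802549, has 11 exons and ends further downstream, at 124849800 against 124849379. The ends of both lie over an annotated gene on the minus strand, whose reads cannot be told apart from theirs where the protocol keeps no strand.

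This pattern was looked for in all genes after it had been seen. Of 13585 genes with at least 2 transcripts with a count, 18 had a transcript with at least 5 counts in every MIT-BATF library and 0 in every MIT-Empty library, and 12 had the reverse. Only 2 genes had both kinds, Mtf1 and Tmem63a. The counts of single transcripts are Salmon's estimates from reads that mostly fit both forms, and only 3 libraries per group are separate if nested libraries hold the same reads. Whether the transcripts or the estimates differ between the groups was not tested.

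**Figure D4:**
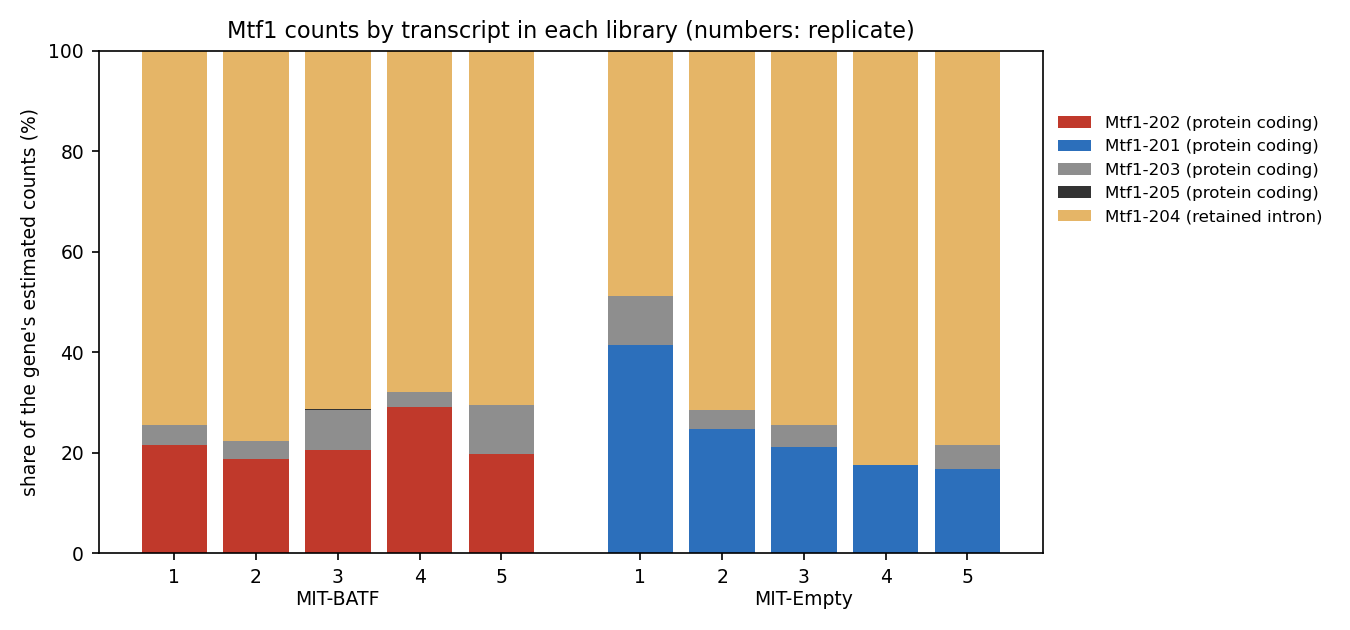
Share of the estimated Mtf1 counts on each annotated transcript, in percent, in the 5 MIT-BATF (left) and 5 MIT-Empty (right) libraries. The retained intron form Mtf1-204 takes 48.8% to 82.5% of each bar, and the full-length counts are on Mtf1-202 in MIT-BATF and on Mtf1-201 in MIT-Empty.

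Slc30a1 (ENSMUSG00000037434, chromosome 1, plus strand, 191906767 to 191913247) encodes the zinc exporter ZnT1 and is induced by MTF-1 as the metallothioneins are. It was at 8.778, 8.312, 7.023, 7.34 and 6.361 CPM in MIT-BATF, against 10.9, 5.275, 9.129, 6.464 and 8.546 CPM in MIT-Empty. The MIT-BATF libraries lay within the range of the MIT-Empty libraries. MIT-Empty replicates 2 and 4, the highest in metallothioneins, were its lowest in Slc30a1. The means were 7.563 ± 0.9778 CPM and 8.062 ± 2.221 CPM (SD, n = 5 each), and the log2 fold change was -0.092 (standard error 0.227, 95% interval -0.576 to 0.391, adjusted p = 0.885 by edgeR). With shared reads counted once it was -0.050 (95% interval -0.613 to 0.512, adjusted p = 0.98). Between 40 and 303 counts per library stood behind these values, all of them on Slc30a1-201.

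Over the 4 genes, edgeR called 0 at an adjusted p under 0.05, and 4.58% of all genes tested (254 genes, or 2.16%, higher and 286 genes, or 2.43%, lower in MIT-BATF). None of the 4 had an unadjusted p under 0.05, which 2133 of the 11781 genes tested had. DESeq2 also called 0 of the 4, against 8.0% of the genes it gave an adjusted p, and limma voom 0 of the 4 and 11.3% of genes. From shared reads counted once, edgeR called 0 of 4, and 1.26% of 11129 genes. The groups overlapped for all 4, while they did not for 6.45% of genes. The median log2 fold change of the 4 was -0.23, beside 0.00654 over all genes tested.

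The remaining metallothioneins were near or at 0. Mt3, known from brain, had 7 to 54 counts per library, a mean of 1.48 ± 0.491 CPM in MIT-BATF against 1.36 ± 0.291 CPM in MIT-Empty (SD, n = 5 each), and a log2 fold change of 0.10 (adjusted p = 0.926 by edgeR). Mt4, known from squamous epithelium, had 0 counts in all 10 libraries, which allows up to 3 counts per library, or 0.088 CPM of the unscaled total in the deepest and 0.459 CPM in the shallowest.

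None of the other zinc carriers passed the test. The ZnT family mostly lowers zinc in the cytosol by export or storage. Of 9 further genes of this family, 5 were tested, 0 were called and the median log2 fold change was -0.16. Slc30a9 was the most abundant of them, at 28.1 ± 3.22 CPM in MIT-BATF against 31.7 ± 4.03 CPM in MIT-Empty (SD; log2 fold change -0.18, adjusted p = 0.562 by edgeR). Slc30a6, which supplies zinc to the Golgi, had the smallest p (log2 fold change 0.30, adjusted p = 0.508). Of 14 genes of the ZIP family, which bring zinc into the cytosol, 12 were tested, 0 were called and the median was -0.039. By edgeR 2 of the 12 had an unadjusted p under 0.05, beside 2133 of the 11781 genes tested.

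The closest ZIP gene to the threshold was Slc39a1, encoding the plasma membrane importer ZIP1. It was at 31.7, 28.8, 22.8, 33.8 and 25.0 CPM in MIT-BATF, against 41.3, 43.8, 31.4, 49.3 and 35.8 CPM in MIT-Empty. Only MIT-Empty replicate 3 lay below the highest MIT-BATF library. The log2 fold change was -0.51 (standard error 0.16, adjusted p = 0.0939 by edgeR), and -0.52 (adjusted p = 0.308) with shared reads counted once. Slc39a11, named after its value was seen as the other ZIP gene with an unadjusted p under 0.05, was at 4.31 to 8.51 CPM in MIT-BATF and 0.245 to 4.69 CPM in MIT-Empty, with a log2 fold change of 1.11 (adjusted p = 0.2 by edgeR), or 1.03 (adjusted p = 0.476) with shared reads counted once.

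Further genes known as MTF-1 targets in mouse did not pass either. Of 5 listed and tested, 0 were called, with a median of 0.25. An unadjusted p under 0.05 by edgeR was found for 2 of the 5, and for 2133 of the 11781 genes tested. Ndrg1, a gene induced by stress, low oxygen and metals, was at 53.6, 44.3, 45.0, 38.7 and 39.0 CPM in MIT-BATF, against 32.7, 30.9, 35.1, 22.3 and 34.4 CPM in MIT-Empty. The groups did not overlap, as was the case for 6.45% of all genes, and the log2 fold change was 0.50 (standard error 0.153, adjusted p = 0.0832 by edgeR). With shared reads counted once it was 0.51 (adjusted p = 0.239 by edgeR). Selenow, a selenoprotein gene and the most abundant of the list, was at 209 ± 33.2 CPM in MIT-BATF against 165 ± 30.1 CPM in MIT-Empty (SD; log2 fold change 0.34, adjusted p = 0.268, and 0.28 with adjusted p = 0.771 over shared reads counted once, both by edgeR).

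**Figure D5:**
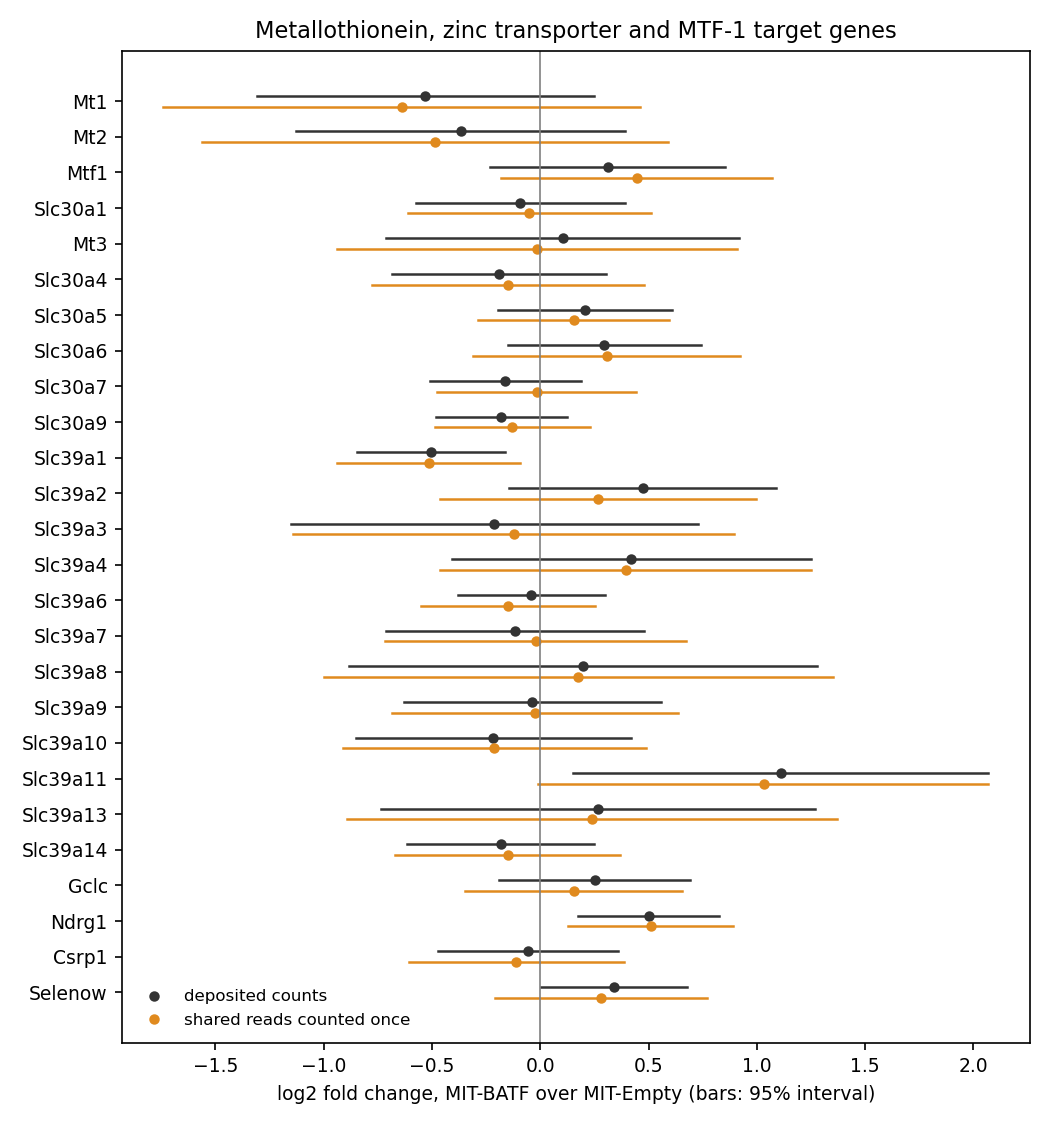
Log2 fold change of MIT-BATF over MIT-Empty (points) with 95% intervals (bars) from edgeR for the tested metallothionein, zinc transporter and MTF-1 target genes, for deposited counts (black) and shared reads counted once (orange). The intervals of Mt1, Mt2, Mtf1 and Slc30a1 cross 0 in both fits, and those of Slc39a1 and Ndrg1 do not in either fit, without passing the adjusted threshold.

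Pathways that also act on the metallothionein promoters were measured beside them. Of 9 genes of the glucocorticoid receptor and its induced genes, 8 were tested and 1 rose, with a median of 0.14. Over all genes tested 2.16% rose, with a median of 0.00654. The gene of the list that rose was Tsc22d3, encoding GILZ, a mediator of glucocorticoid action that is also driven by FOXO factors in T cells. It was at 77.3, 78.9, 72.1, 64.9 and 70.1 CPM in MIT-BATF, against 47.8, 43.6, 46.7, 39.4 and 44.9 CPM in MIT-Empty. The groups did not overlap, and the log2 fold change was 0.71 (standard error 0.123, adjusted p = 0.00415 by edgeR). With shared reads counted once it was 0.73 (adjusted p = 0.0333), but without the contained libraries it was 0.76 (adjusted p = 0.0581), without the containing libraries 0.69 (adjusted p = 0.348) and without MIT-Empty replicates 2 and 4 0.65 (adjusted p = 0.0502, all by edgeR). With shared reads counted once it also missed the threshold when any 1 library other than MIT-BATF replicate 5 was left out (adjusted p of 0.0501 to 0.1 by edgeR). Dusp1, a phosphatase gene and the most abundant of the list, was at 62.4 ± 4.91 CPM in MIT-BATF against 63.5 ± 20.7 CPM in MIT-Empty (SD; adjusted p = 0.969).

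Of 14 oxidative stress genes under NRF2, 13 were tested, 0 were called and the median was 0.044. Prdx1, a peroxidase gene and the most abundant of them, was at 1560 ± 472 CPM in MIT-BATF against 1930 ± 421 CPM in MIT-Empty (SD; log2 fold change -0.30, adjusted p = 0.511 by edgeR), and Srxn1, which reactivates peroxiredoxins, had the smallest p (log2 fold change 0.80, adjusted p = 0.321, and 0.88 with adjusted p = 0.519 over shared reads counted once). Of 8 genes that handle copper, the other metal of metallothioneins, 7 were tested, 0 were called and the median was -0.47. Cox17, which carries copper to the respiratory chain, was at 239 ± 73.2 CPM in MIT-BATF against 357 ± 37.6 CPM in MIT-Empty (SD; log2 fold change -0.58, adjusted p = 0.122 by edgeR), and over shared reads counted once its log2 fold change was -0.70 (adjusted p = 0.343). The median of this list was then -0.38, and those of the ZnT, ZIP, MTF-1 target, glucocorticoid and NRF2 lists were -0.016, -0.023, 0.15, 0.11 and 0.093, with the same number of calls in each list as over deposited counts.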

How the data were processed

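RNA of sorted Pmel CD8+ T cells was measured in 5 MIT-BATF and 5 MIT-Empty libraries, labelled as 1 mouse each and grouped and numbered by their titles. The authors ran nf-core/rnaseq on mm10 and estimated transcript counts with Salmon (version not given in the sources used here). Deposited were Salmon's estimated counts, which need not be whole, and the authors' TPM values, scaled to effective transcript length and library total, which were used for levels between genes and 1 alternative of the Mt1 to Mt2 ratio.

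Of 112092 transcripts, 111787 had an entry in GENCODE's GRCm38 annotation, and the other 305 were not used. The estimated counts of each gene's transcripts were added up and rounded. Totals of 6534472 to 34102086 counts per library limit the precision of low genes. The protocol is not stated to keep strand, so overlapping genes, as at the end of Mtf1, cannot be told apart.

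Genes were tested with edgeR 4.0.16 (TMM, filterByExpr, quasi-likelihood test, group as the only term) on 11781 genes, with Benjamini-Hochberg adjustment over all of them and a threshold of 0.05. The authors used DESeq2, which served as an alternative here (1.42.0), with limma 3.58.1 (voom with quality weights), in R 4.3.3 and Python 3.11.15. Other alternatives were RLE size factors, no filter, a mean count of at least 50, mitochondrial genes left out, protein-coding transcripts only, a block by replicate number, shared reads counted once, fits without the contained or containing libraries, without MIT-Empty replicates 2 and 4, and without each library in turn. Effective length offsets were added after seeing the data. The scripts were tested on simulated counts. Log2 CPM for correlations used a prior count of 2.

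A library was called contained in another where its count was the higher one in less than 1% of its genes with 5 or more counts. The Mt1 to Mt2 ratio was tested by exact permutation. Promoter sequences are RefSeq's for GRCm38.p6, found for all 4 genes. The 4 genes and the lists (ZnT and ZIP families, MTF-1 targets, glucocorticoid, NRF2 and copper genes, cell type markers) were chosen with earlier results of these data known. Named from each list were the genes past the threshold, the most abundant by mean TPM and that with the smallest p. From each marker list the gene of highest mean TPM among those tested and markers at 0 were named, and for Mt1 and Mt2 the 5 genes of highest r. Batf was named as the transduced gene, and Slc39a11, Tmem63a, Tyrp1 and Apoe after their values were seen.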

Additional observations from a re-analysis of the deposited data

Results flagged for a closer look

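In the MIT-BATF group, replicate 1 stood apart from the other 4 libraries in Mtf1, with 20.45 CPM against 10.62 to 13.3 CPM, a gap of 0.727 of the group's whole range. In the same library mitochondrially encoded genes took 33.19% of counts, a gap of 0.831 of the range. In MIT-Empty, replicate 1 was the low library for Mt3, with 0.8571 CPM against 1.41 to 1.62 CPM in the others (0.722 of the range), from 7 counts. The limit for 5 libraries is 0.71, and chance passes it in about 1 of 20 groups, of which 18 were looked at.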

How the results depend on the processing

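The signs of Mt1, Mt2 and their sum held in all fits but 1: without MIT-Empty replicates 2 and 4 they were 0.21, 0.25 and 0.22. Leaving out single libraries gave -0.74 to -0.12 for Mt1, -0.57 to -0.012 for Mt2 and -0.69 to -0.089 for the sum, and, with shared reads counted once, -0.86 to -0.12, -0.72 to -0.060 and -0.81 to -0.11. Mtf1 stayed positive throughout (0.13 without MIT-BATF replicate 1, 0.16 without MIT-Empty replicate 1). Slc30a1 was 0.093 by limma voom, between -0.22 and 0.040 with single libraries left out, and between -0.19 and 0.082 when shared reads were also counted once. None of the 4 genes passed the threshold in any fit. The ratio of Mt1 to Mt2 lay between -0.18 and -0.096 with single libraries left out. Mt3 was -0.014 with shared reads counted once, -0.010 without the contained libraries, and over single libraries between -0.072 and 0.22, or -0.24 and 0.088 with shared reads counted once. Slc30a9 was 0.14 with protein-coding transcripts only and 0.18 with length offsets. Dusp1 was 0.020 without a filter, 0.11 by voom, 0.035 with the replicate block, 0.021 with protein-coding transcripts, 0.032 with length offsets, and between -0.26 and 0.086 over single libraries. Ndrg1 passed by DESeq2 and voom (adjusted p = 0.0264 and 0.0303), Slc39a1 by voom and with the replicate block (0.0354 by limma and 0.0411 by edgeR). With shared reads counted once their adjusted p was 0.239 for Ndrg1 and 0.308 for Slc39a1, both by edgeR. Cox17 passed by voom (0.0231), with the block (0.0404 by edgeR) and without MIT-BATF replicate 5 (0.0457 by edgeR), and Srxn1 by voom (0.0249).

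Over all genes the 540 calls became 1253 with DESeq2, 903 without a filter, 1336 with voom, 140 with shared reads counted once, 96 without the contained libraries, 15 without the containing libraries and 259 without MIT-Empty replicates 2 and 4. Leaving out single libraries gave 287 to 772 calls (287 without MIT-Empty replicate 2, 321 without MIT-BATF replicate 2), and 66 to 150 with shared reads counted once (66 without MIT-Empty replicate 2, 89 without MIT-BATF replicate 2, 93 without MIT-BATF replicate 4). With length offsets 274 were higher and 203 lower in MIT-BATF, against 254 and 286. The cause was not tested. With the replicate block there were 474 calls and log2 fold changes of -0.34 for Mt1, -0.21 for Mt2, 0.31 for Mtf1 and -0.062 for Slc30a1, and the ratio of Mt1 to Mt2 had p = 0.0625 in an exact sign-flip permutation test, the smallest p that 5 pairs allow. Libraries with the same number deviated together with r of 0.221, -0.0989, 0.411, -0.087 and 0.154, and not every library correlated best with its own number. They share only a number.

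Depth limits Mtf1 (46 to 458 counts), Slc30a1 (40 to 303) and Mt3 (7 to 54) and not Mt1 or Mt2. Nesting leaves 3 separate libraries per group of the deposited counts if nested counts are the same reads. Fits with shared reads counted once take 5 per group as separate, and whether they are was not tested.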
